A study of Mus musculus with 6 samples.

Results

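Cck and Grp were the 2 genes that fell in the hippocampus of CBP-ifKOs among 10 neuropeptide genes (Npy, Vip, Cck, Tac1, Tac2, Adcyap1, Crh, Nts, Cartpt and Grp). These 10 were a set list of peptide genes other than the opioid and somatostatin families, located by symbol among the 55471 genes of the count table. The rule itself used no measured value, but the list was chosen with earlier results of these data known. Cck, which encodes cholecystokinin, reached 65.2% of its mean in Control, and Grp, which encodes gastrin-releasing peptide, reached 48.3%. Npy, Vip, Tac1, Tac2, Adcyap1 and Nts did not pass the test, and Crh and Cartpt were too low to be tested.

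Neuropeptides are made as larger precursors that enter dense-core vesicles, where convertases and carboxypeptidases cut and trim them before release. They act mostly through G protein-coupled receptors, often on cells at some distance from the release site. In the hippocampus many of them, such as neuropeptide Y and vasoactive intestinal peptide, are best known from GABAergic interneurons, and cholecystokinin is made both by a class of interneurons and by excitatory cells. CBP, encoded by Crebbp, is a lysine acetyltransferase that is recruited to genes by CREB and other transcription factors.

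Total RNA of the hippocampus was sequenced from mice aged 3 to 6 months, of strain C57BL/6 by the labels and C57BL/6J by the study's methods. The 3 Control and the 3 CBP-ifKO libraries all came from tamoxifen-treated mice, which had received 5 administrations of a 20 mg/mL solution in corn oil on alternate days. CBP-ifKOs were labelled as carrying Crebbp_flox and Camk2a_creERT2, so that the floxed gene was recombined in the adult. For Control, 1 label reads Camk2a_creERT2, whereas the treatment protocol describes the controls as littermates that lack this driver. The Camk2a promoter drives the recombinase in forebrain excitatory neurons, and interneurons and glia lie outside its reach. By the study's methods, CBP-ifKO samples outside the kindling and enrichment experiments came from pooled hippocampi of females. Samples of those other experiments came from individual mice. The present libraries were taken to be the pooled ones, which the sample titles do not state. No label ties a library to single animals. The p-values therefore measure the spread between these libraries.

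Crebbp, the targeted gene, measured 209, 156 and 208 CPM (counts relative to the library total, which was corrected by the trimmed mean of M-values, TMM) in Control and 109, 87.1 and 99.4 CPM in CBP-ifKO, a log2 difference of -0.96 ± 0.10 (SE; edgeR adjusted p = 3.63e-05). Esr1, whose ligand-binding part is carried by the creERT2 fusion, stood at a mean of 6.07 CPM in Control (SD 0.362, n = 3), against 66.7 ± 2.91 CPM in CBP-ifKOs. The paper describes raised Esr1 as a feature of mice with this driver. The Control libraries measured 6.29, 6.27 and 5.65 CPM, which goes with controls that lack the driver and not with the label that names it. Library totals ran from 10199008 to 14950257 counts, so that a floor of 3 counts corresponded to between 0.197 and 0.298 CPM. Of 17981 genes tested, 6.39% passed the threshold of an adjusted p of 0.05 in either direction, 4.99% were lower in CBP-ifKO, and the median log2 difference of all was -0.0033. Markers of hippocampal neurons were present, with Prox1 of the dentate gyrus and Fibcd1 of CA1 well above the floor in every library.

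CBP acts as a coactivator of CREB, whose binding element is the palindrome TGACGTCA and whose core is TGACG, the first bases of the palindrome. Both were searched on both strands in the 250 bases before each RefSeq transcription start of build GRCm38.p6. Of 32851 promoters in the table, 1.55% held the palindrome and 17.8% held the core, a count that includes every palindrome. Of the 10 genes, 8 had an entry (all but Crh and Grp), 6 of these held the core (Adcyap1, Cartpt, Cck, Nts, Tac1 and Vip), 1 held the palindrome (Cartpt), and Npy and Tac2 held neither. These are counts of genes with a match in any promoter, whereas the percentages are shares of promoters. The windows of 4 genes are shown 5′ to 3′ on the strand of the gene, with up to 40 bases on either side of the match and the match in capitals. Cck is shown because it fell, Adcyap1 because its groups did not overlap, Vip because it did not pass the test, and Cartpt because it alone held the palindrome.
Cck, chr9:121495697-121495781, minus strand: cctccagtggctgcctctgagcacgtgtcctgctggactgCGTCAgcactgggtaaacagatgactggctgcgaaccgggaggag
Adcyap1, chr17:93198886-93198970, plus strand: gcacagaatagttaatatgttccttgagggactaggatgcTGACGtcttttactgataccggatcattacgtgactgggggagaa
Vip, chr10:5639099-5639183, plus strand: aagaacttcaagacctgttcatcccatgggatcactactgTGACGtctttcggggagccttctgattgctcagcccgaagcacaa
Cartpt, chr13:99900748-99900835, minus strand: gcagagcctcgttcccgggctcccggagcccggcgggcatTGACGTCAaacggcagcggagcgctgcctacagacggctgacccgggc

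In Cck the core lay 47 to 43 bases before the start, in the reverse orientation (CGTCA). In Vip it lay 79 to 75 bases and in Adcyap1 91 to 87 bases before the start, in the forward orientation in both. Adcyap1 has 2 starts in the table, and the same match lay 242 to 238 bases before the other one. The palindrome of Cartpt lay 112 to 105 bases before the start. The match in Nts lay 166 to 162 bases before the start, and Tac1 had 2 matches, 197 to 193 and 43 to 39 bases before. A match is a description of the letters and not of a bound factor. Of the 2 genes that passed the test, only Cck had an entry, and it held the core. Adcyap1, Nts, Tac1 and Vip held the core and did not pass.

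The 10 genes covered a wide range of levels. Per kilobase of exon, the scale on which genes of unequal length can be compared, the Control mean was 102 CPM per kb for Cck and 39.7 CPM per kb for Npy, placing them at the 99.02 and 95.8 percentiles of the genes tested. Grp followed with 9.58 CPM per kb, at the 74.5 percentile. Nts (4.87) and Vip (4.61) came next, then Adcyap1 (1.82) and Tac1 (1.81), Tac2 (0.852), Crh (0.692) and Cartpt (0.412), all in CPM per kb. In that order the Control libraries of Nts and Vip overlapped, as did those of Adcyap1 and Tac1 and of Tac2 and Crh, so these neighbours were not separated by more than their spread.

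In CBP-ifKO, Cck (66.8 CPM per kb) and Npy (43.3 CPM per kb) kept the first places and drew closer to each other. Vip (5.18 CPM per kb) stood in the third place, ahead of Grp (4.63 CPM per kb) and Nts (3.98 CPM per kb), so that the means of Grp and Vip had exchanged order. The CBP-ifKO libraries of Grp overlapped both those of Vip and those of Nts. Of the counts summed over the 10 genes, Cck made up between 62.3% and 66.3% in Control and between 54.0% and 60.6% in CBP-ifKO. The summed level of the 10 was 177 to 244 CPM in Control libraries and 143 to 167 CPM in CBP-ifKO libraries, with no overlap. Without Cck the sums overlapped, at 66.8 to 82.4 CPM in Control libraries and 64.6 to 70.0 CPM in CBP-ifKO libraries.

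**Figure D1:**
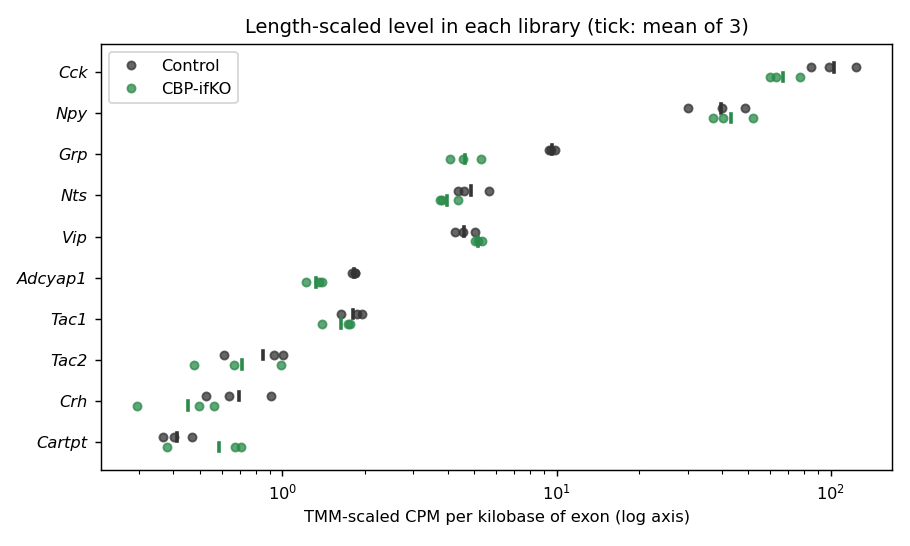
Level of the 10 neuropeptide genes per kilobase of exon (CPM per kb, log axis) in each library; black points are the 3 Control libraries, green points the 3 CBP-ifKO libraries, and ticks the group means. Cck and Npy lead in both genotypes, and the Grp points of CBP-ifKO lie level with Nts and Vip.

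Of the 8 genes tested, 2 passed the threshold, both lower in CBP-ifKO (Cck and Grp). This is set beside 6.39% of all genes tested that passed in either direction and 4.99% that passed as lower. Of the 8, 6 had a negative and 2 a positive log2 difference, with a median of -0.29. Control and CBP-ifKO libraries did not overlap for 3 genes (Cck, Grp and Adcyap1), against 25.6% of all genes tested. DESeq2 called the same 2 genes, against 5.30% of all. Cck and Grp are also on the list of downregulated genes that the study drew from an analysis that included these samples, so their direction is not independent evidence. In bulk tissue, fewer cells that make a peptide and less RNA per cell cannot be told apart.

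**Figure D2:**
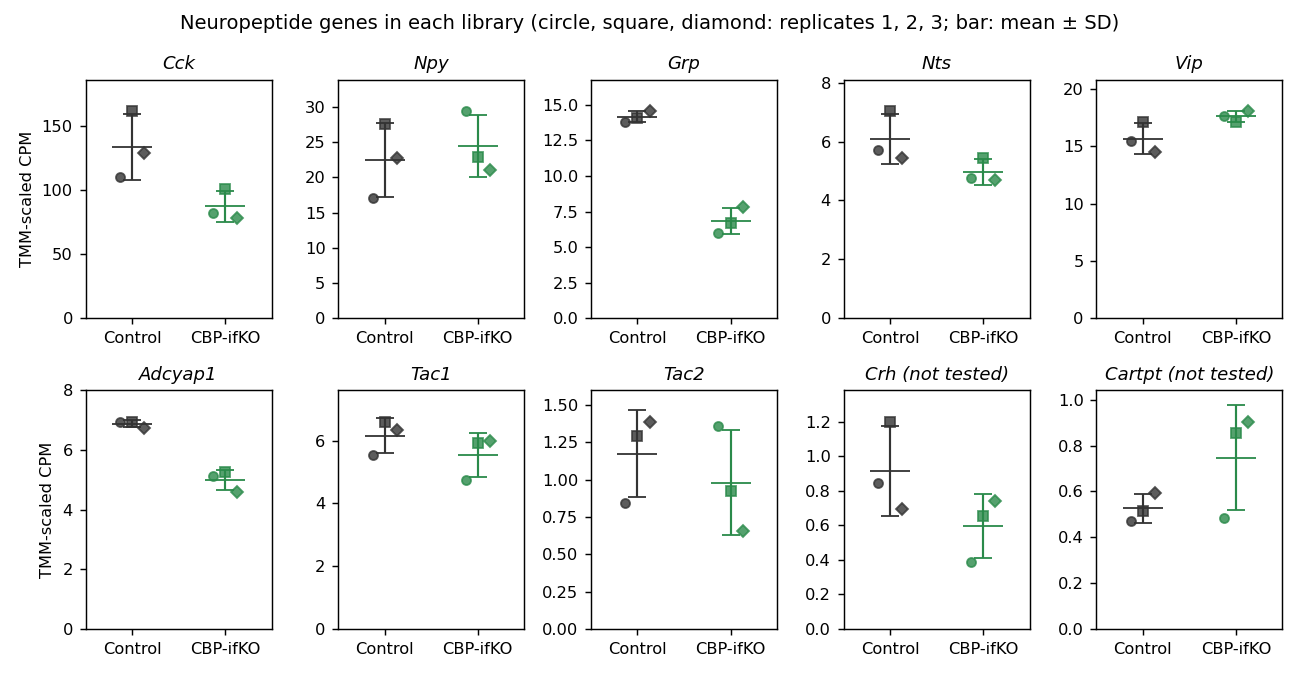
TMM-scaled CPM of each neuropeptide gene in every library (linear axis from 0, own scale per panel); symbols are replicates 1, 2 and 3, and the horizontal bar with whiskers is the mean ± SD. Only in the panels of Cck, Grp and Adcyap1 do all CBP-ifKO libraries lie below all Control libraries.

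Cck (ENSMUSG00000032532; chromosome 9, 121489824 to 121495694, minus strand, GRCm38) encodes the precursor of cholecystokinin, a peptide that acts on neurons through CCK receptors. Its level was 110, 162 and 129 CPM in Control replicates 1, 2 and 3, and 82.3, 101 and 78.2 CPM in CBP-ifKO replicates 1, 2 and 3. All 3 CBP-ifKO libraries lay below all Control libraries, and Control 2 was the highest. The means were 134 ± 26.0 and 87.2 ± 12.2 CPM (SD, n = 3 each), and the log2 difference of Cck was -0.61 (SE 0.11, 95% confidence interval -0.85 to -0.37, edgeR adjusted p = 0.00383). DESeq2 gave an adjusted p of 0.0357.

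Grp (ENSMUSG00000024517; chromosome 18, 65872820 to 65886596, plus strand) encodes the precursor of gastrin-releasing peptide, a bombesin-like peptide. The Control libraries lay close together at 13.8, 14.1 and 14.6 CPM, and the CBP-ifKO libraries at 6.01, 6.70 and 7.82 CPM. The gap between the groups was several times the range within either of them. Grp fell by 1.04 on the log2 scale (interval -1.32 to -0.76, SE 0.13, edgeR adjusted p = 0.000198), the largest difference among the 8 genes tested. The log2 ratio of Grp to Vip was -0.15 ± 0.15 (SD, n = 3) in Control and -1.37 ± 0.17 in CBP-ifKO, and that of Cck to Npy was 2.58 ± 0.098 and 1.84 ± 0.33; these 2 ratios were chosen after their values were seen and are given as a description.

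Adcyap1 (ENSMUSG00000024256; chromosome 17, 93199017 to 93206537, plus strand) encodes PACAP, which raises cyclic AMP in its target cells. It measured 6.95, 6.96 and 6.74 CPM in Control libraries and 5.14, 5.26 and 4.61 CPM in CBP-ifKO libraries. The groups did not overlap, and the CBP-ifKO mean was 72.7% of the Control mean. The log2 difference was -0.46 (SE 0.15, interval -0.78 to -0.135), but with an edgeR adjusted p of 0.0868 it did not pass the threshold. A fit that combined the replicate number as a block with offsets for GC content and gene length gave -0.51 and an adjusted p of 0.0386. It was the only 1 of the 15 alternative fits in which Adcyap1 passed, and the titles tie the replicate numbers to no shared factor. DESeq2 gave an adjusted p of 0.228.

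Npy (ENSMUSG00000029819; chromosome 6, 49822710 to 49829507, plus strand) encodes neuropeptide Y, an inhibitor of transmitter release. Control libraries measured 17.1, 27.6 and 22.7 CPM and CBP-ifKO libraries 29.5, 22.9 and 21.1 CPM. The groups overlapped broadly, and the libraries within each group spread over a wider range than the means differed. The log2 difference was 0.11 (SE 0.15, interval -0.20 to 0.43, edgeR adjusted p = 0.731). It turned to -0.05 without Control 1 and to -0.03 without CBP-ifKO 1, so no direction can be given.

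Vip (ENSMUSG00000019772; chromosome 10, 5639218 to 5647617, plus strand) encodes vasoactive intestinal peptide, a marker of interneurons that mainly contact other interneurons. Control libraries measured 15.5, 17.1 and 14.5 CPM and CBP-ifKO libraries 17.6, 17.1 and 18.1 CPM. Control 2 and CBP-ifKO 2 were level, so the groups touched. The log2 difference was 0.16 (SE 0.11, interval -0.06 to 0.39, edgeR adjusted p = 0.413). The interval of Vip thus lies above those of Cck and Grp, with no overlap.

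Nts (ENSMUSG00000019890; chromosome 10, 102481756 to 102490486, minus strand) encodes the precursor of neurotensin and neuromedin N. Its level was 5.73, 7.04 and 5.45 CPM in Control libraries and 4.75, 5.46 and 4.69 CPM in CBP-ifKO libraries. CBP-ifKO 2 reached above Control 3 by a small margin, so the groups overlapped. The log2 difference was -0.29 (SE 0.17, interval -0.64 to 0.07, edgeR adjusted p = 0.350), and -0.15 without Control 2.

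The 2 tachykinin genes did not pass the test. Tac1 (ENSMUSG00000061762; chromosome 6, 7554879 to 7565834, plus strand), the source of substance P, measured 5.54, 6.61 and 6.35 CPM in Control libraries and 4.75, 5.92 and 6.01 CPM in CBP-ifKO libraries, a log2 difference of -0.14 (interval -0.49 to 0.20, edgeR adjusted p = 0.686). Tac2 (ENSMUSG00000025400; chromosome 10, 127724478 to 127731768, plus strand), the source of neurokinin B, measured 0.845, 1.29 and 1.39 CPM in Control libraries and 1.36, 0.920 and 0.658 CPM in CBP-ifKO libraries. Its log2 difference was -0.29, with a wide interval from -1.06 to 0.48 (edgeR adjusted p = 0.716). Both genes had overlapping groups. With 1 library left out, the difference of Tac1 ran from -0.21 (without Control 1) to -0.05 (without CBP-ifKO 1). That of Tac2 ran from -0.55 (without CBP-ifKO 1) to -0.07 (without CBP-ifKO 3), and neither passed.

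Crh and Cartpt did not pass the filter on low counts. Crh (ENSMUSG00000049796; chromosome 3, 19693401 to 19695396, minus strand), which encodes the stress peptide corticotropin-releasing hormone, had 9, 14 and 7 counts in Control and 4, 10 and 9 counts in CBP-ifKO. Cartpt (ENSMUSG00000021647; chromosome 13, 99898489 to 99901091, minus strand), which encodes the CART peptides, had 5, 6 and 6 counts in Control and 5, 13 and 11 counts in CBP-ifKO. Each library lay above the floor of 3 counts, and both genes had overlapping groups. With no filter, the log2 difference was -0.59 for Crh (interval -1.46 to 0.29, edgeR adjusted p = 0.657) and 0.54 for Cartpt (interval -0.41 to 1.496, adjusted p = 0.723), so differences of moderate size were not detectable at this depth.

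Among Control libraries, Control 2 was the highest for 7 of the 10 genes (Npy, Vip, Cck, Tac1, Adcyap1, Crh and Nts) and the lowest for none. Without it, the log2 difference of Cck was -0.44, with an edgeR adjusted p that still passed, and that of Grp stayed between -1.13 and -0.97 whichever library was left out. Removing trends on GC content and gene length brought Cck to -0.49, and Cck and Grp passed the threshold in each of the 15 alternative fits. The exons of the 10 genes overlapped no other annotated gene.

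**Figure D3:**
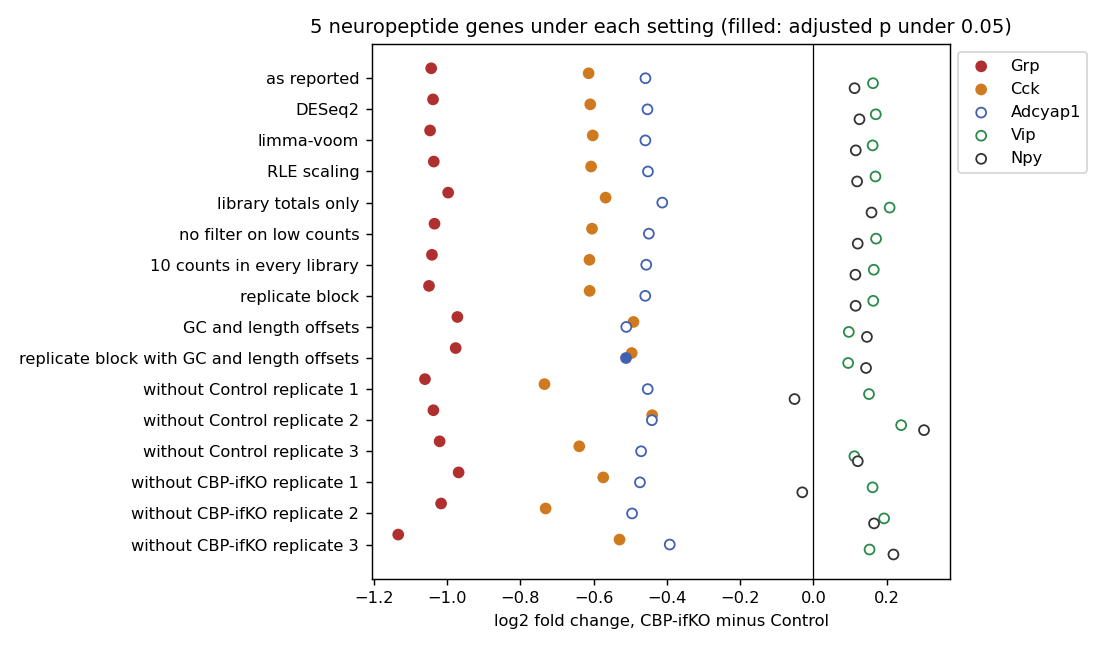
Log2 difference (CBP-ifKO minus Control, horizontal axis) of 5 neuropeptide genes as reported and under 15 other settings (rows); filled points passed an adjusted p of 0.05 and open points did not. Grp and Cck are filled in every row, Adcyap1 in 1, and Npy crosses 0 when Control 1 or CBP-ifKO 1 is left out.

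By the root mean square difference of log2 profiles centred on their own mean over the 6 libraries, the genes nearest to Grp among 12236 compared were Col5a1 (0.0661), a collagen chain, Tdo2 (0.0875), an enzyme of tryptophan breakdown, and Cacna1g (0.0913), a T-type calcium channel. The median distance to Grp was 0.541. The nearest to Cck were Tmem198 (0.115), Ccdc124 (0.119) and Ccdc184 (0.119), with a median distance of 0.375. All of these genes also passed the threshold as lower in CBP-ifKO. In the order given, the log2 differences were -1.03, -0.89 and -1.08 near Grp, and -0.58, -0.45 and -0.58 near Cck. Over 6 libraries a small distance largely reflects a like difference between the genotypes, and shared regulation was not tested.

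The list held 19 receptor genes for peptides of the 10 genes, with none for the CART peptides. Of the 19, 14 were tested, 2 fell (Cckbr and Crhr1), none rose, and the median log2 difference was -0.19. Of the 14, 12 had a negative and 2 a positive difference. Of all genes tested, 4.99% passed as lower. Cckbr, the CCK2 receptor, which predominates in the brain, measured 4.79, 6.36 and 5.95 CPM in Control libraries and 3.10, 2.96 and 3.46 CPM in CBP-ifKO libraries, and differed by -0.85 ± 0.19 (log2, SE; edgeR adjusted p = 0.0108). Crhr1, the main brain receptor for corticotropin-releasing hormone, measured 8.07, 6.79 and 7.74 CPM in Control libraries and 5.14, 3.75 and 4.86 CPM in CBP-ifKO libraries, and differed by -0.73 ± 0.17 (adjusted p = 0.0152). In both, every CBP-ifKO library lay below every Control library. The same held for Vipr1, Adcyap1r1, Tacr3, Ntsr1 and Sort1, which did not pass. Of all genes tested, 25.6% had groups that did not overlap, in either direction. Without Control 3 the adjusted p rose to 0.0525 for Cckbr and 0.0632 for Crhr1, and without CBP-ifKO 2 to 0.0729 and 0.110.

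Receptors of the other peptides gave no call. Npy1r and Npy2r, the main receptors for neuropeptide Y in the hippocampus, measured 34.3 ± 3.01 and 74.98 ± 4.44 CPM (SD, n = 3) in Control libraries, against 28.5 ± 2.57 and 65.1 ± 8.55 CPM in CBP-ifKO, with edgeR adjusted p of 0.0983 and 0.191. Adcyap1r1, the PACAP receptor, measured 144 ± 8.95 and 131 ± 4.44 CPM, and Grpr, the receptor for gastrin-releasing peptide, 2.27 ± 0.663 and 2.46 ± 0.580 CPM. Vipr1 (log2 difference -0.36, adjusted p = 0.0649) and the neurotensin-binding sorting receptor Sort1 (-0.18, adjusted p = 0.0612) came nearest to the threshold without passing it in edgeR, and DESeq2 gave Sort1 an adjusted p of 0.0421. Sort1 also passed with limma-voom, without Control 2 and with the replicate block combined with GC and length offsets. Cckar and Npy6r had 0 counts in every library, which in each allows up to the floor of 3 counts, and Npy4r and Tacr2 were below 0.5 CPM.

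**Figure D4:**
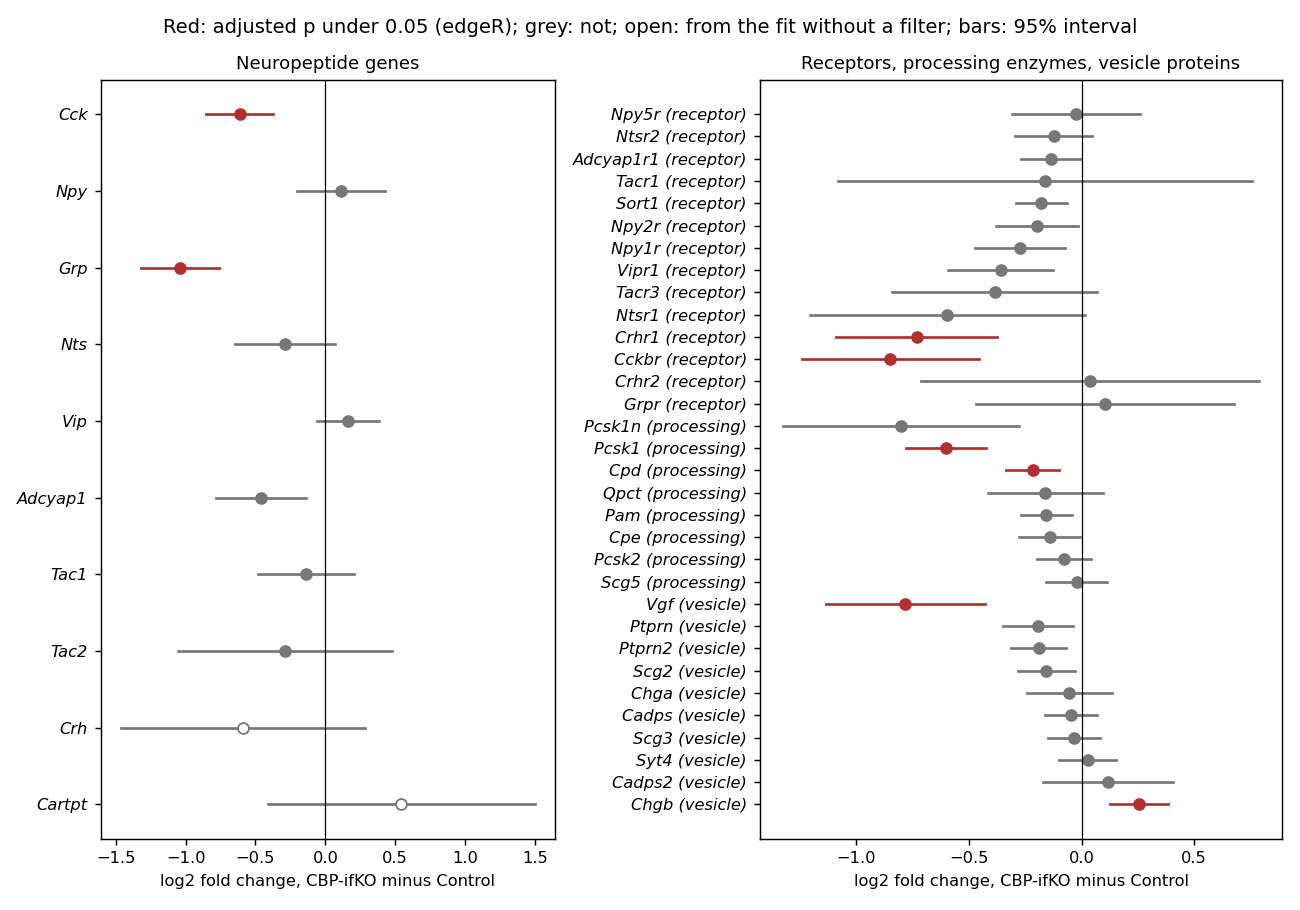
Log2 difference between CBP-ifKO and Control (points) with its 95% confidence interval (bars) for the 10 neuropeptide genes (left) and for the tested receptors, processing enzymes and vesicle proteins (right); red passed an adjusted p of 0.05 in edgeR, grey did not, and open points come from the fit without a filter. Several grey intervals also lie wholly below 0, such as those of Adcyap1, Npy1r, Vipr1, Sort1, Pam and Pcsk1n, and no grey interval lies wholly above 0. Among those in red, Grp, Cckbr, Vgf, Crhr1, Cck and Pcsk1 lie farthest to the left, and only Chgb lies to the right of 0.

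All 8 genes of precursor processing were tested, 2 fell (Pcsk1 and Cpd) and none rose, against 4.99% of all genes tested that passed as lower. All 8 had a negative log2 difference, with a median of -0.16, against -0.0033 over all genes tested. Pcsk1, the prohormone convertase PC1/3, measured 41.4, 43.1 and 47.7 CPM in Control libraries and 29.9, 30.04 and 27.0 CPM in CBP-ifKO libraries, with no overlap. The log2 difference was -0.60 ± 0.084 (SE; edgeR adjusted p = 0.00042) and passed in each of the 15 alternative fits as well. Its companion convertase Pcsk2 measured 277 ± 14.0 and 263 ± 1.12 CPM (SD, n = 3 each), with an adjusted p of 0.482.

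Cpd, a carboxypeptidase of the secretory pathway, averaged 209 ± 5.67 CPM in Control against 179 ± 2.23 CPM in CBP-ifKO (SD, n = 3 each) and fell by 0.22 on the log2 scale (edgeR adjusted p = 0.0263). Scaled by library totals alone it no longer passed (adjusted p = 0.0820), nor did it without Control 1 (0.0857), without Control 3 (0.113) or without CBP-ifKO 1 (0.0704), 2 (0.0973) or 3 (0.116). Cpe, the main carboxypeptidase of peptide precursors, differed by -0.14 (adjusted p = 0.206). Pcsk1n, an inhibitor of PC1/3, differed by -0.80 with an adjusted p of 0.0650, and Control 2 stood apart in it at 21.3 CPM against 7.98 and 12.1 CPM in the other Control libraries. Without Control 2 the difference of Pcsk1n was -0.32 (adjusted p = 0.305). It passed without Control 1 (-1.08, adjusted p = 0.00293), with no filter on low counts (3.71e-06), with the replicate block (0.0247) and with the block and GC and length offsets (0.00618).

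Of 10 vesicle genes, all tested, Vgf fell and Chgb rose, against 6.39% of all genes tested that passed in either direction. Of the 10, 7 had a negative and 3 a positive difference. Vgf, a granin-like protein, measured 29.6, 50.1 and 32.3 CPM in Control libraries and 26.6, 18.0 and 21.5 CPM in CBP-ifKO libraries, a log2 difference of -0.78 (edgeR adjusted p = 0.00904). Control 2 was its highest library, and without it the difference was -0.50. With DESeq2 Vgf did not pass (adjusted p = 0.0994), nor without CBP-ifKO 2 (0.0889) or without CBP-ifKO 3 (0.0538).

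Chgb, chromogranin B, measured 499, 551 and 487 CPM in Control libraries and 633, 585 and 615 CPM in CBP-ifKO libraries, above every Control library, a log2 difference of 0.25 (edgeR adjusted p = 0.0180). Its call was lost without Control 1 (0.0617), Control 3 (0.126), CBP-ifKO 1 (0.0716) or CBP-ifKO 3 (0.0799). The related chromogranin Chga measured 66.1 ± 9.17 and 63.8 ± 4.32 CPM (SD, n = 3 each), with an adjusted p of 0.792.

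Of 11 genes for related ligands and binding proteins, 2 were tested and none passed. Crhbp, which binds corticotropin-releasing hormone, differed by -0.33 (edgeR adjusted p = 0.148). Nmb, a bombesin-like peptide related to Grp, differed by -0.60 (adjusted p = 0.272), and 20.6% of its exon bases are shared with Sec11a. Pyy, Ucn, Ucn3 and Sct had 0 counts in every library.

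Of the 6 opioid and somatostatin-family peptide genes, 5 were tested and 3 fell, against 4.99% of all genes tested that passed as lower. The log2 difference was -1.42 for Pdyn, -1.26 for Penk and -0.51 for Sst (edgeR adjusted p = 0.000106, 0.000148 and 0.00154), so the differences of Grp and Cck lay between those of Penk and Sst.

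The marker lists of cell types and neighbouring regions moved with genotype in part. Of all genes tested, 6.39% passed in either direction and 4.99% as lower. Of 15 interneuron markers, 3 fell (Slc32a1, Calb2 and Nos1), and Gad1 and Gad2 differed by -0.06 and -0.08 without passing. Of the 15, 14 had a negative and 1 a positive difference, with a median of -0.13. Slc32a1 (edgeR adjusted p = 0.0450) did not pass with DESeq2 (adjusted p = 0.0804), and 24.9% of its exon bases overlap Gm14205 on the other strand. The summed level of the 15 markers was 1679 to 1732 CPM in Control libraries and 1589 to 1643 CPM in CBP-ifKO libraries. Of 8 excitatory markers 1 fell (Fibcd1), with overlapping sums of 1095 to 1134 and 961 to 1115 CPM. Of 6 mossy cell markers 2 fell (Calb2 and Grm8), with sums of 61.2 to 72.6 and 48.5 to 54.1 CPM.

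Of the striatal and amygdalar markers 5 of 6 were tested and 1 rose (Rgs9), with sums of 151 to 155 CPM in Control libraries and 128 to 143 CPM in CBP-ifKO libraries. Of the neocortical and subicular markers 5 of 6 were tested and none passed, with sums of 132 to 145 and 115 to 121 CPM. The habenular and thalamic list had none among 6 tested, with sums of 54.3 to 56.7 and 50.8 to 57.5 CPM, and its markers Pou4f1 and Chrnb4 were below 0.5 CPM. Choroid plexus had none among 3 tested, and astrocyte, microglia, oligodendrocyte and endothelial markers none among 5 each. The sums of the interneuron, mossy cell, striatal and neocortical lists were, like Cck and Grp, lower in every CBP-ifKO library. These lists are not independent, as the interneuron list shares Calb2 with the mossy cell list and Lamp5 with the neocortical list. Most of the striatal sum was Pde10a, with a Control mean of 117 CPM. Drd2 and Csf2rb2 of the mossy cell list had positive differences. The part of these lists in the differences of Cck and Grp was not tested.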

How the data were processed

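The authors deposited raw counts of reads per Ensembl gene for 6 hippocampal RNA-seq libraries, 3 Control and 3 CBP-ifKO (50 bp single-end reads). Per the study's methods and the submitters' processing notes, reads were checked with FastQC 0.11.8, trimmed with Trim Galore 0.6.4, aligned to GRCm38 with STAR 2.6.1, kept at a mapping quality above 10, and counted over exons with Rsubread. Their differential tests used DESeq2 1.30.1. Whether counting used strand is not given in the sources used here.

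Gene IDs were matched to a GENCODE annotation of GRCm38 (55230 of 55471, or 99.57%). Counts were filtered with filterByExpr of edgeR 4.0.16 (minimum count 10, minimum total 15), scaled by TMM and tested with its quasi-likelihood test in R 4.3.3 with no covariate, and p-values were adjusted by the Benjamini-Hochberg method over 17981 genes. Groups and replicate numbers came from the sample titles. The same-numbered libraries' deviations from the group means had correlations of 0.0769, 0.0369 and 0.00217. These values gave little sign of pairing over all genes, but they cannot exclude it for single genes. The titles give the numbers no meaning beyond naming libraries. Alternatives were DESeq2 1.42.0, limma-voom (limma 3.58.1), RLE scaling, library totals, no filter, a minimum of 10 counts per library, fits that omit 1 library each, a replicate block, and offsets for GC content and exon length (natural splines, 5 degrees of freedom) with and without that block. The scripts were tested on simulated data.

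The 10 genes and all lists were chosen with earlier results of these data known. All 10 were named, with every receptor, processing and vesicle gene past the threshold, called genes of the related and other peptide lists, and the 3 nearest profiles of each called member among genes of at least 5 CPM. Other receptor, processing and vesicle genes, related ligands and markers given with values were chosen after their values were seen. Floors cover counting error only.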

Additional observations from a re-analysis of the deposited data

How the results depend on the processing

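Cck and Grp passed the threshold in each of the 15 alternatives, with log2 differences of -0.73 to -0.44 and -1.13 to -0.97 and adjusted p up to 0.0392 and 0.00303. The replicate block alone called 1210 genes against 1149, kept 1091 of them, and changed no call among the 10 peptide genes (Cck -0.61, Grp -1.05). Together with GC and length offsets the block called 1869 genes, 3 peptide genes (Adcyap1 in addition, at -0.51), 5 receptor genes against 2, and 8 processing and vesicle genes against 4. Leaving out 1 library at a time gave 498 to 1326 genes, with 546 without Control 3, 498 without CBP-ifKO 2 and 526 without CBP-ifKO 3. It gave 0 to 3 receptor genes, with 0 without Control 3 or CBP-ifKO 2 and 3 without Control 2 (Sort1 in addition). It gave 1 to 4 processing and vesicle genes, with 2 without Control 3 or CBP-ifKO 2 and 1 without CBP-ifKO 3. The median log2 difference of the peptide genes tested was -0.29 over 8 genes. With 1 library left out it ran from -0.33 to -0.16, at -0.18 without Control 2 and -0.16 without Control 3. Cartpt entered the fits without Control 1, Control 3 or CBP-ifKO 1, so their medians cover 9 genes and are not of the same set. Npy ran from -0.052 to 0.30, and changed sign without Control 1 (-0.052) and without CBP-ifKO 1 (-0.03). The cause of these shifts was not tested. Of the genes called, 78.1% were lower as reported, 56.5% with library totals, 66.1% with GC and length offsets, and 60.5% with these offsets and the block. Crh gave a value only without a filter, and Cartpt there and in the fits where it passed. Depth limits Tac2, Crh and Cartpt, whose intervals span both directions. With 3 libraries per group no sample was tested as an outlier.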
